A study of Mus musculus with 4 samples.

Results

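Hmga2 and 3 genes tied to it were followed through single-cell libraries of mouse bone marrow: its antisense transcript 1700006J14Rik, its relative Hmga1, and Igf2bp2. They are 4 of the 32285 genes counted, matched by symbol. They were chosen by their levels in these same libraries, so levels and co-detection are given as a description, and no test supports them. The libraries held CD45.2+ Kit+ marrow cells collected at 10 weeks from transplanted mice, with antibody barcodes read beside the RNA by 10x Genomics 3′ chemistry. There was 1 library for each group, named control, Mll3SI, Mll4SI and Mll3/4SI in the labels, and values listed "in library order" follow that sequence. MLL3 and MLL4, encoded by Kmt2c and Kmt2d, are histone methyltransferases that act at enhancers. The labels used here do not spell out SI and name no promoter or driver line, strain, age, animal, sex or batch. A single library per group leaves no replicate spread, so no test between groups was made, and each interval is a 95% interval of counting error only.

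HMGA2 is a small chromatin protein that binds the minor groove of AT-rich DNA and bends it. It is abundant in fetal blood stem cells, lower in adult ones, and held down by the microRNA let-7, which LIN28 proteins block. HMGA1 is the other member of the family and is common in dividing cells. IGF2BP2 binds mRNAs and is known as a gene that HMGA2 activates.

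On mouse build GRCm38, by GENCODE M21, Hmga2 (ENSMUSG00000056758) lies on chr10:120361275-120476469 on the minus strand. 1700006J14Rik (ENSMUSG00000034764) lies inside it, on chr10:120364157-120384336 on the plus strand. It overlaps the last Hmga2 exon, which carries the 3′ UTR, by 140 exonic bases (chr10:120364157-120364296). From there it runs against the direction of Hmga2 and ends in intron 3. The 3′ ends of both genes, where this chemistry places its reads, are 23.1 kb apart. Another antisense gene, 9230105E05Rik (ENSMUSG00000090191, chr10:120389523-120392793), lies wholly within intron 3. Whether counting used strand is not given in the sources used here, so reads of these overlapping genes could not be told apart with certainty. Hmga1 (ENSMUSG00000046711) is on chr17:27556497-27563674 and Igf2bp2 (ENSMUSG00000033581) on chr16:22059009-22163299. Reads of Hmga1 can be shared with the near-identical Hmga1b on chr11:120762794-120764419, so its level is uncertain by that copy. Hmga1b itself held 0.654 to 1.60 CPM (UMIs per 1000000 UMIs) in the libraries.

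**Figure D1:**
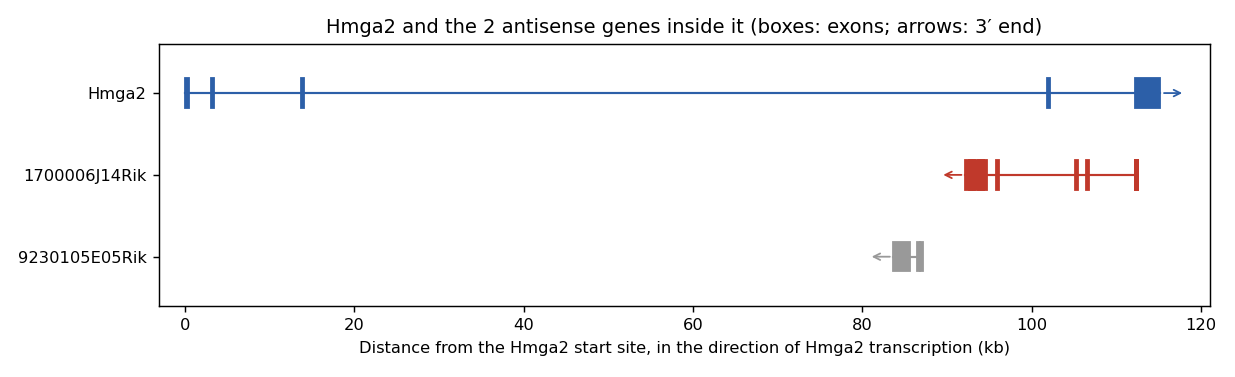
Exons (boxes) and introns (lines) of Hmga2 and of the 2 antisense genes, by distance in kb from the Hmga2 start site, with arrows at the 3′ ends. 1700006J14Rik starts 112 kb downstream, opposite the last Hmga2 exon, and ends 92.1 kb downstream, within intron 3.

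The Hmga2 promoter is shown because the level of this gene is what the comparisons turn on. It is the 250 bases before the start (RefSeq, GRCm38.p6, chr10:120476470-120476719, minus strand), 5′ to 3′, with a GC box match in capitals.

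Hmga2 promoter: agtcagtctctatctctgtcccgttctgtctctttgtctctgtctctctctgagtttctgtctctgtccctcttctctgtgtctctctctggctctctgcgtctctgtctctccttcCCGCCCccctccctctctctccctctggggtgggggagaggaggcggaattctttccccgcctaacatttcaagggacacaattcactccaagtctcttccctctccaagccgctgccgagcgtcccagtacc

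C or T made up 70.8% of this stretch, more than in 99.6% of 32851 mouse promoters of the same length, whose median was 50%. The share was 54.4% for 1700006J14Rik, whose own window lies in the last exon of Hmga2 and is not printed. The GC box, spelled GGGCGG and searched on both strands, was found 1 time for Hmga2, 2 times for 1700006J14Rik, 2 times for Igf2bp2 and 7 times over both listed promoters of Hmga1. Of all promoters 32.7% hold it. The TATA box (TATAAA), held by 12.4% of promoters, was not among the letters of the members' windows. Neither was the CCAAT box, held by 33.8%.

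Members of the let-7 family are shown because let-7 is the known regulator of Hmga2 and its sites differ in number between the genes. Mature sequences are from RefSeq, with the seed (bases 2 to 8) in capitals, and 10 of the 11 family names in the table share this seed.

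let-7a-5p: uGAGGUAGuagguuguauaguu

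let-7g-5p: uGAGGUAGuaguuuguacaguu

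miR-98-5p: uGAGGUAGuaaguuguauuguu

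The longest annotated 3′ UTR of Hmga2 (3014 bases) holds 4 exact matches to the seed, from bases 58, 1295, 1733 and 2591 of the UTR. Of 21045 genes with a 3′ UTR, 12 (0.0570%) have as many, and 9.02% have any. Igf2bp2 and Hmga1 have 1 each, and the 4 annotated transcripts of 1700006J14Rik have 0. A match is a description of letters, and let-7 itself was not measured. The sites are printed with the match in capitals.

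Hmga2 site 1: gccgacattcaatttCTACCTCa

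Hmga2 site 2: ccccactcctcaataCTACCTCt

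Hmga2 site 3: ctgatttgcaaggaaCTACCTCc

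Hmga2 site 4: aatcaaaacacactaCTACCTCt

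Igf2bp2 site: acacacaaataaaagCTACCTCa

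Hmga1 site: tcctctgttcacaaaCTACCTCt

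Across the libraries 31707 cells were kept, 6743 to 10186 per library, with medians of 12800 to 19185 UMIs per cell. Joint clustering, made without the members, gave 25 clusters, of which 22 could be named from marker genes. Granulocyte-like cells made up 62.8% to 77.4% of a library and HSC/MPP-like cells (blood stem cells and multipotent progenitors) 7.79% to 14.9%. Kit, the sort marker, was at 208 to 229 CPM in HSC/MPP-like cells and 63.6 to 79.1 CPM in granulocyte-like cells. Ptprc, which encodes CD45, had a UMI in 85.7% to 93.9% of cells. Kmt2c was at 110 to 147 CPM and Kmt2d at 33.3 to 41.3 CPM, and a 3′ tag outside an altered stretch checks nothing. Xist, made from the inactive X chromosome of female cells, was at 1148 and 1360 CPM in Mll4SI and Mll3/4SI and at 0.0315 and 0.194 CPM in the other libraries. Y-linked Eif2s3y showed the reverse, with 0 UMIs in Mll4SI and Mll3/4SI. For these libraries sex and genotype cannot be told apart. Pairs of libraries shared 16 to 29 cell barcodes.

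Some clusters held cells of 1 library almost alone. Those with over 80% of their cells from 1 library are called library-only here, a rule chosen after the clusters were seen. They took in 1.87%, 1.66%, 47.0% and 51.1% of cells, in library order. For Mll4SI these were granulocyte-like clusters 2, 7 and 15. For Mll3/4SI they were granulocyte-like clusters 9, 10 and 22 and the HSC/MPP-like cluster 17. The name of cluster 9 is weak, as it had 4 granulocyte markers against 2 basophil/mast markers, just the lead required. Against the other cells of Mll3/4SI, 4 of 15 granulocyte and 6 of 11 monocyte markers were more than 2-fold higher in cluster 9. Levels that rest on library-only clusters are given with and without them. Cluster 3 lay just below the limit, with 76.8% of its cells from Mll4SI, and values at a limit of 75%, which leaves it out too, were added.

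In control HSC/MPP-like cells Hmga2 stood at 88.2 CPM (84.3 to 92.3, from 1934 UMIs in 932 cells). Mll3SI had 61.2 CPM (57.6 to 64.95), Mll4SI had 54.3 (51.0 to 57.8) and Mll3/4SI had 25.5 (23.5 to 27.6). Control was highest and Mll3/4SI lowest, 3.46-fold below control, while the intervals of Mll3SI and Mll4SI overlapped. As log2 ratios of CPM + 1 to control, the differences were -0.52, -0.69 and -1.75. Without cluster 17 the Mll3/4SI level was 21.3 CPM, 4.14-fold below control. The same order was seen in each of the 2 HSC/MPP-like clusters that the libraries share. In cluster 4, led by the stem cell genes Mecom and Angpt1, Hmga2 was at 111, 76.6, 72.5 and 30.6 CPM in library order. In cluster 13 the levels were 60.9, 42.7, 34.96 and 10.7 CPM.

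After each cell was thinned to 5000 UMIs, 27.2% (24.3 to 30.2) of control HSC/MPP-like cells had an Hmga2 UMI. The shares were 20.5% for Mll3SI, 18.3% for Mll4SI and 10.7% (8.80 to 12.7) for Mll3/4SI. From 6 to 13 shallower cells per library were left out. Unthinned, the shares were 52.6%, 37.0%, 38.7% and 25.5%, so Mll3SI and Mll4SI changed places and the ends of the order did not. Cells of high level were also fewer outside control: 139 of 932 control cells had 5 or more Hmga2 UMIs, against 70 of 946, 56 of 793 and 23 of 1008. Without cluster 17 the Mll3/4SI share of thinned cells was 10.03% (34 of 339), and 9 of 343 cells had 5 or more UMIs. For comparison, 0.672% of thinned control granulocyte-like cells had an Hmga2 UMI, at a median depth before thinning that differs between classes. Of those 28 cells 18 also had an antisense UMI, so the share is not given as a measure of free RNA.

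Each library carried 2 hashtag antibodies whose meaning the labels do not give, and the cells of each were compared in the shared HSC/MPP-like clusters. Control had 76.2 CPM of Hmga2 in Hashtag1 cells and 100.04 CPM in Hashtag2 cells. Mll3SI had 86.0 and 36.9 CPM. Its Hashtag1 cells thus lay between both control values, and the lower level of the whole library came from its Hashtag2 cells. Mll4SI had 64.3 and 44.5 CPM, and Mll3/4SI had 23.3 and 16.9 CPM. Log2 ratios within Hashtag1 and Hashtag2 were 0.17 and -1.42 for Mll3SI, -0.24 and -1.15 for Mll4SI, and -1.67 and -2.49 for Mll3/4SI. Mll3/4SI was more than 2-fold below control with either hashtag, and Mll3SI and Mll4SI with Hashtag2 only.

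**Figure D2:**
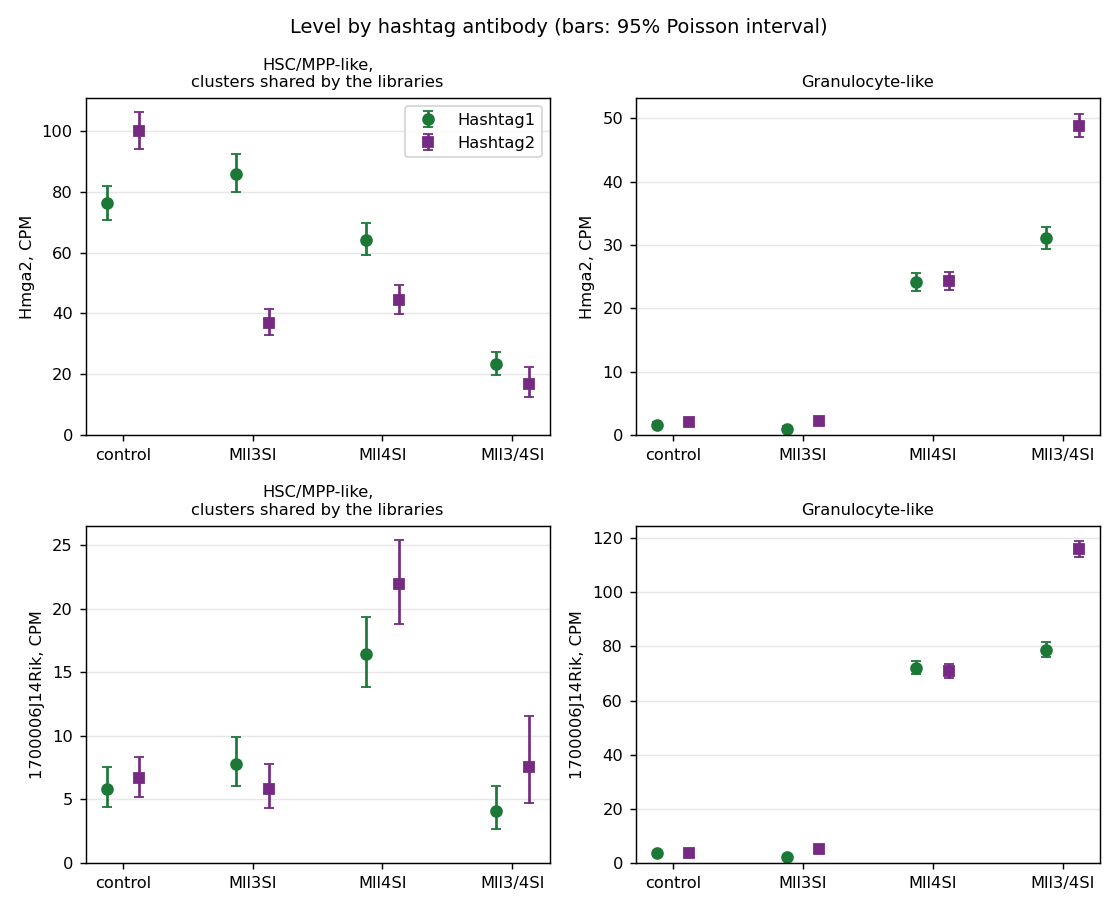
Level in CPM of Hmga2 (top) and 1700006J14Rik (bottom) in cells positive for 1 hashtag, for HSC/MPP-like cells of shared clusters (left) and granulocyte-like cells (right); bars are 95% Poisson intervals. In the top left panel the Mll3SI points are at 86.0 and 36.9 CPM and the Mll3/4SI points at 23.3 and 16.9 CPM.

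Surface antibodies placed Hmga2 within the HSC/MPP-like cells, which were ranked by antibody signal and cut into 4 equal groups. Sca1 is carried by stem and multipotent cells, and CD16_32 (Fc receptors) marks myeloid progenitors. In control, Hmga2 was at 146 CPM in the group of highest Sca1 and 52.0 CPM in that of lowest. Highest exceeded lowest in 4 of 4 libraries, by 1.98-fold in Mll3/4SI to 2.81-fold in control. CD16_32 ran the other way, with 34.3 CPM in the highest and 154 CPM in the lowest group of control, and 20.1 and 32.9 CPM in Mll3/4SI. At the highest Sca1 the level was 93.4 CPM for Mll3SI, 92.7 for Mll4SI and 30.2 for Mll3/4SI, so Mll3/4SI was lowest there too. For CD34 and CD135 the highest over lowest ratio was 2.43 and 2.21 in control but 0.940 and 0.883 in Mll3/4SI. Without cluster 17 the Mll3/4SI ratios were 1.56 and 1.64.

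Granulocyte-like cells showed the opposite order. Hmga2 was at 1.86, 2.03, 24.0 and 41.6 CPM in library order. Mll4SI was 12.9-fold (10.8 to 15.5) and Mll3/4SI 22.4-fold (18.8 to 26.8) above control, while Mll3SI was at 1.09-fold (0.855 to 1.39). Thinned shares of cells with an Hmga2 UMI were 0.672%, 0.654%, 8.86% and 13.9%. Without library-only clusters the share was 8.15% (7.19 to 9.19) in Mll4SI but 2.11% (1.55 to 2.80) in Mll3/4SI, so the order of these libraries turned. Hashtag1 and Hashtag2 cells had 24.1 and 24.3 CPM in Mll4SI, and 31.1 and 48.8 CPM in Mll3/4SI. In Mll3/4SI library-only clusters held 32.3% of Hashtag1 and 66.4% of Hashtag2 cells. The 15 HSC/MPP markers summed to 108, 118, 90.2 and 372 CPM in granulocyte-like cells, none of them at 0, and their part in the result was not tested. In Mll4SI that sum was below the sum of control.

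Most of the Mll3/4SI value came from library-only clusters. Without them granulocyte-like Hmga2 was at 5.73 CPM in Mll3/4SI, 3.12-fold (2.51 to 3.90) above control, and at 21.3 CPM in Mll4SI, 11.6-fold (9.61 to 14.1). Both hashtags showed this, with 20.7 and 21.3 CPM for Mll4SI, 5.09 and 5.44 CPM for Mll3/4SI, and 1.66 and 1.97 CPM for control. Cluster 10 of Mll3/4SI, led by stefins such as Stfa1 and Stfa3 and by the neutrophil gene S100a8, reached 125 CPM in 1153 cells. This was above the 111 CPM of control cluster 4. Cluster 22 reached 111 CPM, and cluster 9, with Cpa3 and the granule protease genes Ctsg and Prtn3 among its leading genes, 23.8 CPM. In Mll4SI the level was 25.6 CPM in cluster 2, 28.5 in cluster 7 and 22.7 in cluster 15. In cluster 3 Mll4SI had 33.0 CPM (535 UMIs in 1947 cells), control 2.26 and Mll3/4SI 4.95, with 0 Hmga2 UMIs in 133 Mll3SI cells. The Mll4SI level of 21.3 CPM rested largely on this cluster. At the limit of 75%, 1154 granulocyte-like cells of Mll4SI were left, with 11.4 CPM, 6.28-fold (5.01 to 7.91) above control, and Mll3/4SI was at 5.77 CPM, 3.18-fold above.

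Shared granulocyte-like clusters differed among themselves. In cluster 5, led by the primary granule genes Elane, Prtn3 and Mpo, Hmga2 was at 3.96, 2.003, 6.75 and 3.001 CPM in library order. In cluster 12, led by Fcnb, Lyz2 and Camp, it was at 1.32, 2.35, 23.0 and 6.98 CPM. Mll4SI was highest in both, and its level was higher in cluster 12. In cluster 14, also led by Elane and Prtn3, Mll3/4SI was highest with 13.98 CPM (59 UMIs), against 2.01, 2.44 and 6.87 CPM. Monocyte-like cells did not share the high values, with 4.95, 4.85, 3.56 and 1.95 CPM. There Mll3/4SI was the lowest, from 19 UMIs in 303 cells. This direction turned when cells took the class of the nearest control cells, from a log2 ratio of -1.01 to 0.97.

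1700006J14Rik was scarce in control HSC/MPP-like cells, where Hmga2 was highest. It was at 6.20 CPM (136 UMIs) there and at 6.95 CPM in Mll3SI. Mll4SI had 19.9 CPM, 3.20-fold (2.62 to 3.93) above control, although Hmga2 was lower there. Both hashtags of Mll4SI, with 16.4 and 21.9 CPM, lay above those of control, with 5.82 and 6.66 CPM. Free RNA is a limit here, since the antisense stood at 57.1 CPM over all kept cells of Mll4SI. The B-lymphoid-like cells of that library, taken as a background, had 7.55 CPM (2.45 to 17.6), just below the interval of HSC/MPP-like cells (17.9 to 22.004). This background came from 5 UMIs in 2 of 42 cells. Its interval does not allow for UMIs grouped in few cells, so it is a weak reference for free RNA. Thinned, 7.37% (5.64 to 9.42) of HSC/MPP-like cells had an antisense UMI, against 1 of 31 B-lymphoid-like cells (3.23%, 0.0816 to 16.7), so by share the classes could not be told apart at this number of cells. Median depths were 21693 and 16389 UMIs. Mll3/4SI had 48.5 CPM, and this excess lay in cluster 17, at 76.3 CPM. Without that cluster Mll3/4SI was at 5.63 CPM, 0.908-fold (0.646 to 1.26) of control. Of the 668 cells of cluster 17, 665 came from Mll3/4SI, which has 1008 HSC/MPP-like cells. The class name was not stable: 662 of the 665 kept it at Leiden resolution 2, but 398 kept it by the class of the nearest control cells, 5 at resolution 0.5 and none without doublet removal. In it 11 of 15 HSC/MPP markers, 6 of 9 megakaryocyte and 4 of 10 basophil/mast markers were more than 2-fold above the other cells of the library. Its basophil/mast markers summed to 1934 CPM (2 of them at 0), against 463 CPM (3 at 0) in the other HSC/MPP-like cells of Mll3/4SI, and their part in the antisense level was not tested.

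In granulocyte-like cells the antisense was high in the same libraries as Hmga2. Its levels in library order were 3.53, 4.20, 71.7 and 101 CPM. Mll4SI was 20.3-fold (17.9 to 23.1) and Mll3/4SI 28.6-fold (25.2 to 32.6) above control. Without library-only clusters they were at 62.1 and 19.05 CPM, 17.97-fold and 5.52-fold above. The Mll4SI value rested largely on cluster 3 (1438 UMIs, 88.7 CPM), and at the limit of 75% it was 39.5 CPM, 12.8-fold (10.9 to 14.98) above control. Cluster 10 reached 264 CPM and cluster 22 reached 247 CPM. Monocyte-like cells had 0.9996, 1.13, 9.19 and 6.27 CPM. In Mll4SI monocyte-like cells the antisense was 9.20-fold (5.87 to 15.2) above control and Hmga2 at 0.719-fold (0.533 to 0.968). The antisense level of these cells, from 217 UMIs in 100 of 981 cells, could not be told apart from the 7.55 CPM of the B-lymphoid-like background. That background rests on 2 positive cells, so it settles little. Thinned, 4.09% of them had an antisense UMI, within the interval of that background.

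Erythroid-like and basophil/mast-like cells carried the antisense in control too. In erythroid-like cells 1700006J14Rik was at 72.6, 64.6, 158 and 95.8 CPM and Hmga2 at 39.1, 16.3, 70.3 and 29.5 CPM, in library order. In basophil/mast-like cells the antisense was at 56.0, 60.7, 169 and 224 CPM and Hmga2 at 44.2, 24.2, 101 and 69.6 CPM. In both classes Hmga2 was lowest in Mll3SI and highest in Mll4SI. Within Mll3SI basophil/mast-like cells, Hashtag1 cells had 37.97 CPM of Hmga2 and Hashtag2 cells 13.8 CPM. Class sizes were 89 to 314 erythroid-like and 107 to 157 basophil/mast-like cells per library.

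**Figure D3:**
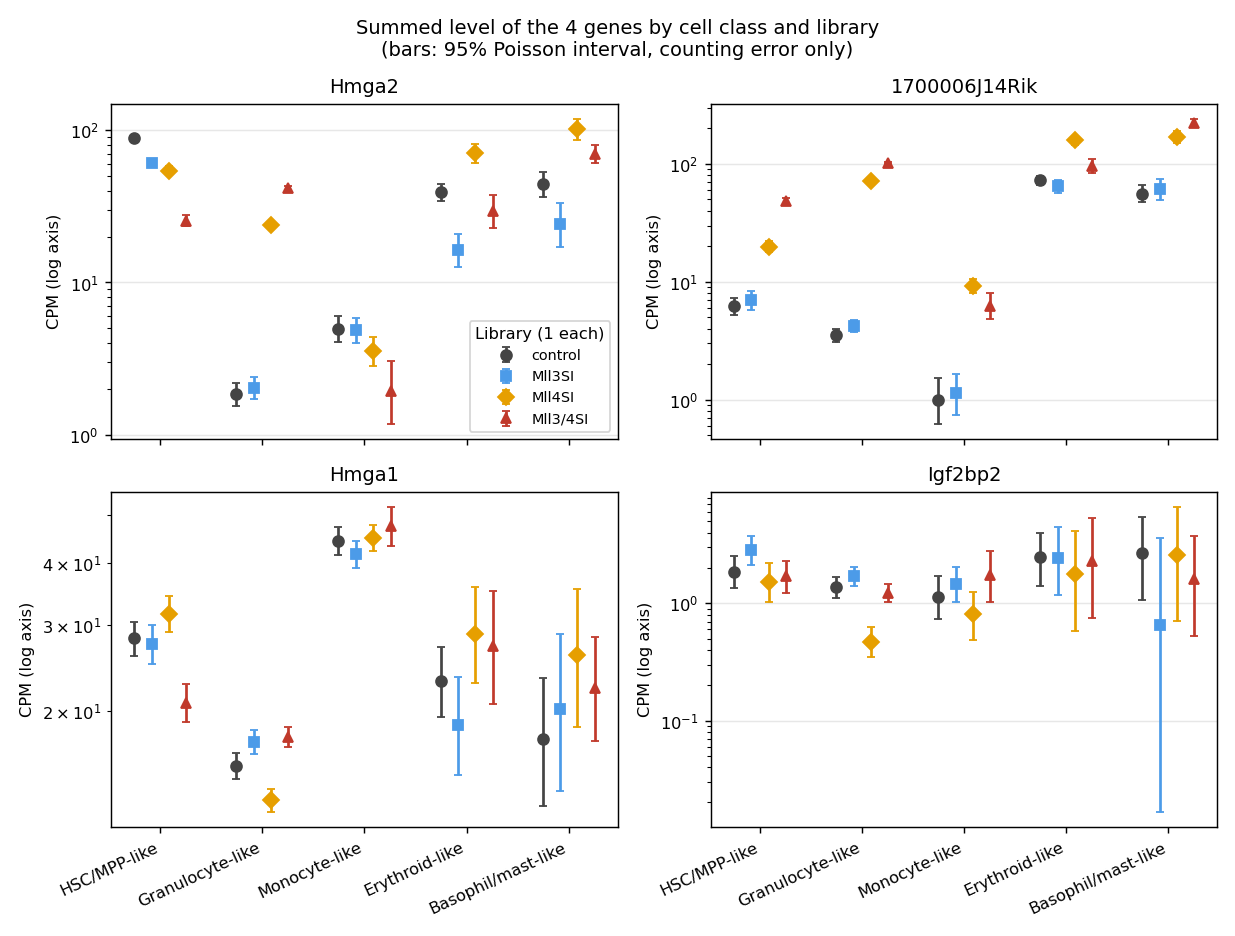
Summed level in CPM (log axis) of each member in 5 cell classes, 1 point per library with its 95% Poisson interval. Hmga2 is at 88.2 CPM in control and 25.5 CPM in Mll3/4SI among HSC/MPP-like cells and at 1.86 and 41.6 CPM among granulocyte-like cells, while Hmga1 lies between 13.2 and 47.5 CPM in every class shown.

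The balance of both transcripts differed widely between the classes of control. UMIs are 3′ tags not scaled by length, so the ratio is read between classes and libraries and not as a ratio of molecules. There were 0.0703 antisense UMIs per Hmga2 UMI in HSC/MPP-like cells (0.0587 to 0.0837), 0.202 in monocyte-like, 1.27 in basophil/mast-like, 1.86 in erythroid-like and 1.90 in granulocyte-like cells. In granulocyte-like cells the other libraries had 2.07, 2.99 and 2.43, and 2.08, 2.91 and 3.32 without library-only clusters. In the shared HSC/MPP-like clusters they had 0.110, 0.366 and 0.264, all below every granulocyte-like value. In monocyte-like cells the other libraries had 0.233, 2.58 and 3.21, a wider range than the granulocyte-like and shared HSC/MPP-like values. The Mll4SI value rested on an antisense level near the background.

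**Figure D4:**
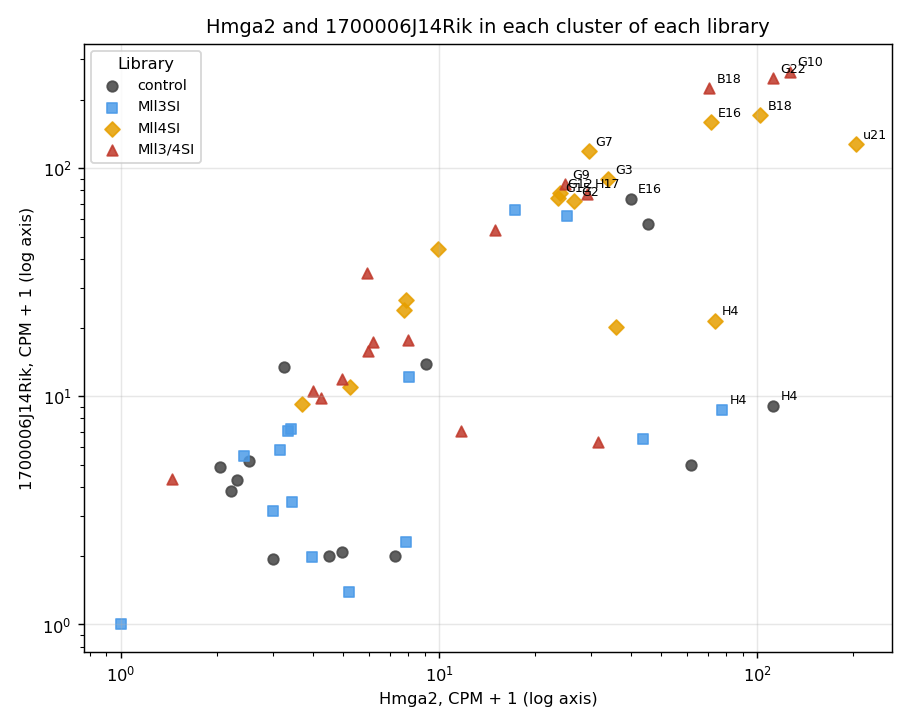
Hmga2 against 1700006J14Rik (CPM + 1, log axes), 1 point per cluster and library with at least 100 cells; letters give the class (H for HSC/MPP-like, G granulocyte-like, E erythroid-like, B basophil/mast-like, u unnamed) before the cluster number. Control clusters 4 and 13 lie at high Hmga2 and low antisense, and clusters 10 and 22 of Mll3/4SI at the top right with 264 and 247 CPM of antisense.

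Within granulocyte-like cells both transcripts were found in the same cells. After thinning to 5000 UMIs, 79.7% (76.4 to 82.7) of Hmga2-positive Mll4SI cells had a 1700006J14Rik UMI, against 9.89% (9.19 to 10.6) of Hmga2-negative cells. In Mll3/4SI the shares were 79.0% and 14.7%, and 63.0% and 3.79% without library-only clusters. The few positive control cells also stood apart, with 18 of 28 (64.3%, 44.1 to 81.4) against 0.628%, as did those of Mll3SI, with 17 of 33 against 0.978%. In Mll4SI the difference was present in each library-only cluster: 75.5% against 10.1% in cluster 2, 90.1% against 12.0% in cluster 7 and 78.1% against 9.31% in cluster 15. Within the clusters of Mll3/4SI it was smaller than over all its granulocyte-like cells: 55.8% against 24.3% in cluster 9, 87.3% against 30.6% in cluster 10 and 81.4% against 32.4% in cluster 22. At the limit of 75% the shares of Mll4SI were 61.4% and 8.69%.

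Cluster 10 had many cells without either transcript beside cells with many UMIs of both. Unthinned, 413 of its 1153 cells had neither, 653 had both, 80 the antisense alone and 7 Hmga2 alone, each with a single Hmga2 UMI. Positive cells had a median of 3 Hmga2 and 7 antisense UMIs, and the highest values were 20 and 37. Among all granulocyte-like cells of Mll4SI, 6118 of 7885 had neither, 990 both, 688 the antisense alone and 89 Hmga2 alone. Hmga2 without the antisense was the rarest state in the granulocyte-like cells of Mll4SI, at 1.13%, and of Mll3/4SI, at 1.16%. In control it was not, with 38 cells of that kind beside 33 with both.

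HSC/MPP-like cells differed in this respect. In control, 403 of 932 cells had Hmga2 UMIs without the antisense, 87 had both and 15 had the antisense alone. Thinned, 6.77% (3.99 to 10.6) of Hmga2-positive and 2.23% (1.25 to 3.65) of Hmga2-negative control cells had an antisense UMI. The shares were 5.73% and 2.55% for Mll3SI, and 9.72% and 6.84% for Mll4SI, where the intervals of each pair overlapped. Unthinned, with depth per cell not made equal, the intervals of these pairs did not overlap. Mll3SI had 16.6% (12.8 to 20.9) and 3.69% (2.33 to 5.54). Mll4SI had 30.9% (25.8 to 36.4) and 9.88% (7.37 to 12.9). For Mll3/4SI the thinned shares were 34.9% and 11.1% with cluster 17, and 4 of 34 cells against 1.97% without it.

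**Figure D5:**
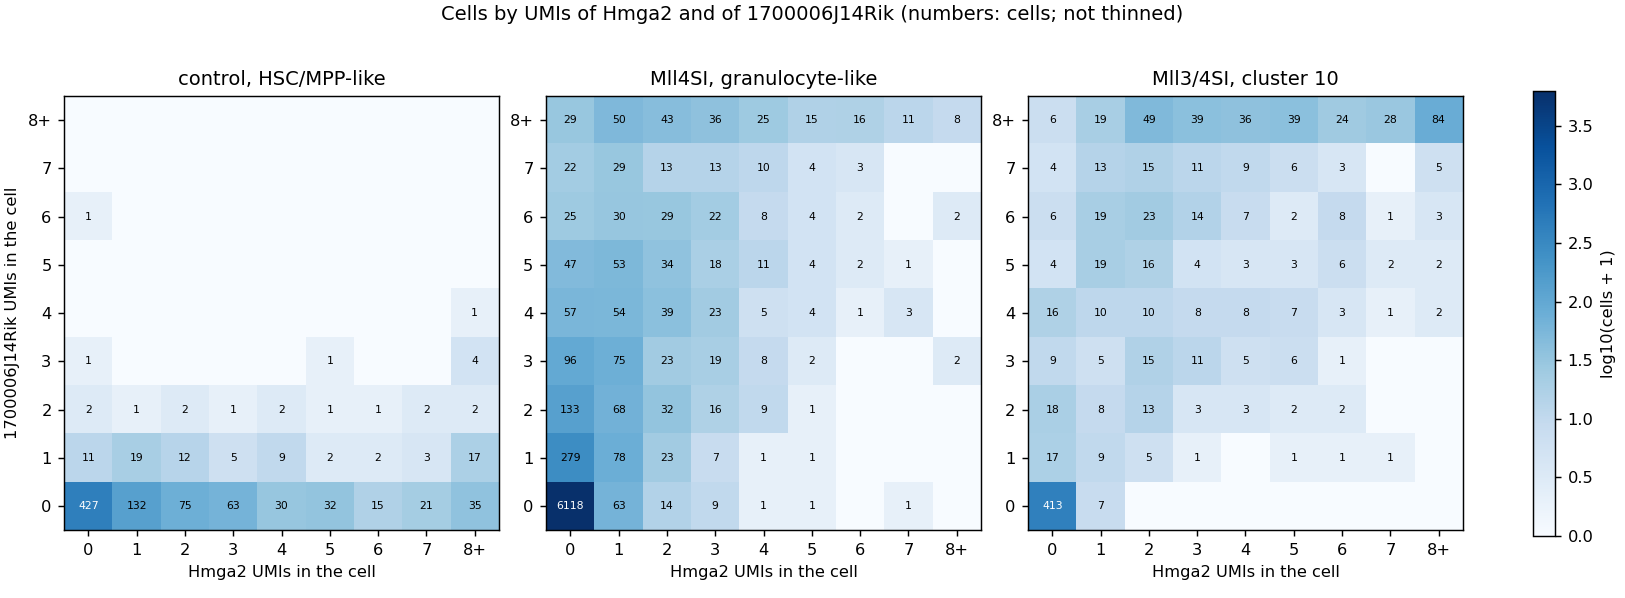
Cells by their UMIs of Hmga2 (x axis) and of 1700006J14Rik (y axis), unthinned and with 8 or more pooled; the number in each square counts cells and its colour shows log10 of cells + 1. Control HSC/MPP-like cells spread along the Hmga2 axis, 403 of them with no antisense UMI, while cluster 10 of Mll3/4SI has 413 cells with neither transcript and 653 with both.

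The antisense gene inside intron 3 was detected with Hmga2 as well. In granulocyte-like cells 9230105E05Rik was at 0.213, 0.0709, 3.10 and 2.94 CPM in library order. Without library-only clusters Mll4SI had 2.26 CPM and Mll3/4SI 0.234 CPM. A UMI of it was found in 8.57% of thinned Hmga2-positive Mll4SI cells against 0.834% of Hmga2-negative ones, and in 8.32% against 0.517% in Mll3/4SI. In HSC/MPP-like cells it was at 0.438 to 0.511 CPM. Hmga1, outside the locus, was found in 3.01% of Hmga2-positive and 4.72% of Hmga2-negative granulocyte-like cells of Mll4SI.

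Hmga1 differed less between the libraries. In HSC/MPP-like cells it was at 28.1, 27.3, 31.6 and 20.8 CPM in library order. The lower Mll3/4SI value came with cluster 17, since without it the level was 35.5 CPM, 1.26-fold (1.10 to 1.45) of control. Granulocyte-like cells had 15.5, 17.3, 13.2 and 17.7 CPM. The Mll4SI value turned with the clusters counted, to 27.6 CPM and 1.70-fold (1.53 to 1.89) of control at the limit of 75%. The mix of clusters differed there, with cluster 5 giving 441 of 1154 Mll4SI cells and 495 of 3838 control cells. Within cluster 5 Mll4SI and control had 34.9 and 33.9 CPM, and within cluster 14 they had 28.2 and 23.4 CPM. Cluster 12 had 19.6 and 13.2 CPM, and clusters 0 and 1 went the same way. The intervals of Mll4SI and control overlapped in each of these clusters. Monocyte-like cells had 44.3, 41.7, 45.0 and 47.5 CPM. Among the 5 classes plotted, monocyte-like cells were highest and granulocyte-like cells lowest in every library, although the intervals of granulocyte-like and basophil/mast-like cells overlapped in control, Mll3SI and Mll3/4SI, as did those of granulocyte-like and erythroid-like cells in Mll3SI. The B-lymphoid-like cells, 37 to 189 per library, had 44.9, 46.0, 86.1 and 48.4 CPM.

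Igf2bp2 was low in the named classes. HSC/MPP-like cells had 1.87, 2.88, 1.53 and 1.70 CPM in library order, from 28 to 51 UMIs, and the intervals of these levels overlapped. As a ratio, Mll3SI was at 1.54-fold (1.001 to 2.38) of control. In Mll3/4SI, where Hmga2 was lowest, Igf2bp2 was at 0.911-fold (0.574 to 1.44) of control. Granulocyte-like cells had 1.38, 1.70, 0.472 and 1.23 CPM. Mll4SI was lowest there, at 0.343-fold (0.236 to 0.492). It was at 0.672-fold (0.438 to 1.01) without library-only clusters and at 1.07-fold (0.681 to 1.64) at the limit of 75%, where the mix of clusters differed. Within cluster 5 Mll4SI and control had 2.21 and 3.69 CPM, and within cluster 14 they had 1.37 and 4.80 CPM. Clusters 1 and 0 went the other way, with 2.62 (5 UMIs) and 1.12 CPM (1 UMI) against 0.801 and 0.269 CPM. Levels of 10.4 to 15.3 CPM were found in the unnamed cluster 19, which carried 8 megakaryocyte and 7 HSC/MPP markers.

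Counts past a fold threshold put the members beside all genes. A gene was tested where its mean over the libraries was at least 10 CPM, and called where the log2 ratio of CPM + 1 was at least 1 in size. Of the 4 members 3 were tested in each class, and Igf2bp2 was below the limit. In HSC/MPP-like cells, cluster 17 included, 0 members were called in Mll3SI, where 0.173% of 8666 genes were lower and 0.15% higher. In Mll4SI 1 member, 1700006J14Rik, was higher, where 0.762% of genes were higher and 0.427% lower. In Mll3/4SI Hmga2 was lower and 1700006J14Rik higher, where 1.32% of genes were lower and 1.63% higher. In granulocyte-like and monocyte-like cells together 0 members were called in Mll3SI (0.153% of 7825 genes lower, 0.102% higher). Hmga2 and 1700006J14Rik were both higher in Mll4SI (0.371% of genes lower, 0.55% higher) and Mll3/4SI (0.511% lower, 0.805% higher). These contrasts chose the members, so nothing is read from the counts, and all comparisons share the control library.

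Genes of the same pathway and neighbourhood were counted by that threshold. Of 20 genes of the let-7 and LIN28 axis, 14 were tested in HSC/MPP-like cells. Ccnd1, a cyclin of the G1 phase, was the 1 gene called, at 39.5, 29.7, 10.7 and 12.3 CPM in library order, lower in Mll4SI and Mll3/4SI, where 0.427% and 1.32% of all tested genes were lower. Against shares this low nothing is read from a list with 0 calls. The median log2 ratio of these 14 genes was 0.0035, -0.03 and -0.21 for the 3 comparisons, beside 0.02, -0.01 and -0.07 over all tested genes. Lin28b, which blocks let-7, was at 0.113 to 0.766 CPM, and Igf2bp1 had no UMI in these cells. Lin28a, the other LIN28 protein, was at 0.341 to 1.09 CPM in HSC/MPP-like cells but at 16.8 to 21.3 CPM in granulocyte-like and monocyte-like cells together. The other 4 lists had 0 calls in either group of cells. They were fetal and perinatal stem cell genes (2 of 10 tested), other high mobility group proteins (9 of 10), chromosome 10 neighbours of Hmga2 (9 of 12) and reported HMGA2-linked genes (7 or 8 of 12). Some of their genes below the 10 CPM limit passed the fold in HSC/MPP-like cells. Plag1 had log2 ratios of -1.38, -1.21 and -0.98, and the neighbour Msrb3 had -1.15 in Mll3/4SI. Cdkn1c and Cdkn2a were higher in Mll3/4SI, at 1.05 and 1.09, from 191 and 37 UMIs over the libraries. The let-7 list had 0 calls among 14 genes tested in granulocyte-like and monocyte-like cells. Ccnd1 was below the 10 CPM limit there, at 9.60, 8.96, 2.76 and 2.49 CPM, with log2 ratios of -0.09, -1.49 and -1.60.

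The genes most like each transcript were ranked over 20 sums of a library and class with at least 100 cells, among 8586 genes, by Pearson's r of log2(CPM + 10). The sums share libraries and depth, and r is a description. Closest to Hmga2 were Wbp1l (0.86), Slc24a3 (0.83), Myct1 (0.82), Rprd2 (0.82) and Pcdh7 (0.82). Closest to 1700006J14Rik were Gm20559 (0.91), March2 (0.88), Cd84 (0.85), St8sia6 (0.84) and P2ry1 (0.84). Hmga2 and its antisense had an r of 0.68, and Hmga2 had -0.31 with Hmga1 and 0.23 with Igf2bp2. Neither transcript was among the 5 closest of the other.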

How the data were processed

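The authors deposited UMI counts of genes and antibodies for each cell barcode, and the submitters' processing notes name Cell Ranger 7.1.0 and build mm10; the strand setting and annotation are not given in the sources used here. The members and lists were chosen with earlier results of these data known, and named genes followed the rule of all members, the 5 genes most like Hmga2 and 1700006J14Rik, and called list members, at most 4 per list. Genes outside it (Lin28a, Lin28b, Igf2bp1, Plag1, Msrb3, Cdkn1c, Cdkn2a, 9230105E05Rik, Hmga1b, the leading genes of clusters and those that check labels) were named after their values were seen.

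Cells with at least 500 genes, 1000 UMIs and at most 10% mitochondrial UMIs were kept. The cells with the highest Scrublet scores, 0.8% for each 1000 cells of a library, were removed as doublets (2415 of 34122). Clustering (2000 variable genes without members, lists, markers and sex genes, 30 components, 15 neighbours, Leiden resolution 1) used scanpy 1.11.5 and leidenalg 0.10.2 in Python 3.11.15. A cluster took a class name with at least 3 markers at a log2 fold of at least 1 and a lead of 2 over the next class. A difference from the study may come from these rebuilt names.

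UMIs were summed per class and library and expressed as CPM. Level intervals are exact Poisson, ratio intervals exact conditional binomial, and shares exact Clopper-Pearson. Folds are ratios of CPM without an added value; log2 ratios have 1 CPM added, which understates changes of low genes. Libraries held 7524 to 11678 barcodes and 140546094 to 177753607 gene UMIs. A floor of 3 UMIs was also set for each level, and the upper Poisson limit of a count of 0 lies above it. Hashtag thresholds were 98 UMIs (Hashtag1) and 331 (Hashtag2), at the lowest point between modes, and cells above both were left out of hashtag values. Antibody counts were set as centred log2 ratios over 13 surface antibodies. On simulated class sums, 100 of 100 genes changed by 4-fold and 0 of 100 changed by 1.5-fold were called in HSC/MPP-like cells. As calls start at 2-fold and low genes were not changed, this checks the code only. The 95% ratio interval held the true ratio for 189 of 200 genes there. In granulocyte-like and monocyte-like cells together it did so for 180 of 200, or 90%. Of the 32285 gene IDs, 32158 were found in GENCODE M21. Doublet removal, filters, clustering, scaling, added CPM and, after seeing the data, the clusters counted were varied.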

Additional observations from a re-analysis of the deposited data

Results flagged for a closer look

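Hmga2 differed in direction between 2 cell classes of the same libraries. In Mll4SI its log2 ratio to control was 3.13 in granulocyte-like cells and -0.69 in HSC/MPP-like cells, and in Mll3/4SI it was 3.90 and -1.75. The difference between the classes was not tested, as each group had 1 library.

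The unnamed cluster 21, outside the class comparisons and of low depth (a median of 1461 to 2069 UMIs per cell), held 203 CPM of Hmga2 in Mll4SI (72 UMIs in 105 cells) and a level of 794 CPM in Mll3/4SI (136 UMIs in 73 cells). Control had 0 UMIs in 84 cells and Mll3SI 4 UMIs in 68 cells. In Mll3/4SI 5 cells held 91 of the 136 UMIs.

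The second antisense gene 9230105E05Rik, outside the members, had 3.10 CPM in granulocyte-like cells of Mll4SI, and those of Mll3/4SI had 2.94 CPM, above the 0.213 CPM of control. Without library-only clusters the Mll3/4SI level was 0.234 CPM.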

How the results depend on the processing

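Hmga2 was lower than control in HSC/MPP-like cells of all 3 libraries, and higher in granulocyte-like cells of Mll4SI and Mll3/4SI, under every alternative run on whole classes; within Hashtag1 cells alone the Mll3SI ratio in HSC/MPP-like cells was 0.17. In HSC/MPP-like cells the log2 ratio for Mll3SI was -0.64 at Leiden resolution 2 and -0.79 at 0.5, and for Mll4SI -0.49 at 0.5. For Mll3/4SI it was -2.02 without doublet removal, -1.96 by the class of the nearest control cells, -1.47 with 10 CPM added and -1.998 without library-only clusters, an alternative chosen after seeing the data. In granulocyte-like cells, 10 CPM added gave 1.52 (Mll4SI) and 2.12 (Mll3/4SI) for Hmga2 and 2.59 and 3.04 for 1700006J14Rik, and leaving out library-only clusters gave 1.25 and 2.17 for Hmga2 and 1700006J14Rik in Mll3/4SI. With the limit of a library-only cluster at 75%, also chosen after seeing the data, these were 1.26 and 2.24, with 2.14 and 3.31 in Mll4SI, and the values in HSC/MPP-like cells were those without library-only clusters. The antisense in HSC/MPP-like cells of Mll3/4SI reversed, to -0.0202 without doublet removal, -1.08 at Leiden resolution 0.5 and -0.12 without library-only clusters. The last leaves out cluster 17, and in the other settings 660 and 665 of its 665 Mll3/4SI cells were in a cluster without a name. With 10 CPM added it was 1.85, and 0.88 in Mll4SI. Hmga2 in monocyte-like cells of Mll3/4SI reversed to 0.97 by the class of the nearest control cells, and the cause was not tested. Shares of Hmga2-positive HSC/MPP-like cells were higher at greater depth: 41.1%, 30.7%, 29.1% and 16.1% at 10000 UMIs in the order control, Mll3SI, Mll4SI and Mll3/4SI, and 52.6%, 37.0%, 38.7% and 25.5% unthinned, and the Mll3/4SI share was 8.24% without doublet removal. Antisense-positive shares among Hmga2-positive cells were 17.8%, 16.6%, 30.9% and 60.7% unthinned, 11.1% (control) and 19.1% (Mll4SI) at 10000 UMIs, and 3.45% in Mll3/4SI without doublet removal. Counting unnamed clusters of 1 library as HSC/MPP-like was not run. At Leiden resolution 1 no unnamed cluster had over 80% of its cells from 1 library. At resolution 0.5 an unnamed cluster had 1748 of its 1763 cells from Mll3/4SI, against 665 Mll3/4SI cells in cluster 17. The effect of counting this unnamed cluster as HSC/MPP-like was not tested. Cpa3, Ly6e, Auts2 and Xist were among its leading genes and among those of granulocyte-like cluster 9. How many cells of cluster 9 it took in was not traced, so the name of cluster 9 may depend on the resolution too. No paired analysis was possible because each group had 1 library. Depth limits Igf2bp2 most, with 28 to 51 UMIs per library in HSC/MPP-like cells.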
